A study of Mus musculus with 14 samples.

Results

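The members described here are the 7 genes of mouse mitochondrial DNA that encode subunits of respiratory complex I, *mt-Nd1*, *mt-Nd2*, *mt-Nd3*, *mt-Nd4*, *mt-Nd4l*, *mt-Nd5* and *mt-Nd6*, together with *Gm28438*, a chromosome 1 pseudogene whose sequence is nearly that of *mt-Nd3*. They were matched by symbol and make up 8 of the 33939 genes with a value. The set was chosen by the measured difference of *Gm28438* and *mt-Nd3* between genotypes in these same libraries, so the values of all 8 members in cKO and Ctrl are given as a description, without a test, whereas the hemispheres were compared with a test.

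The libraries came from CD11b+ microglia/macrophages, collected with magnetic beads from each hemisphere of male C57BL/6 mice aged 8 to 12 weeks, 3 days after TBI by controlled cortical impact. The IL hemisphere was the injured side and the CL hemisphere the uninjured side of the same brain. Ctrl mice were *Cx3cr1-CreER+/-*, cKO mice carried the same Cre allele together with a homozygous floxed target gene, and both genotypes received tamoxifen. Cre was thus driven by *Cx3cr1*, a gene of microglia that some blood monocytes also express, and was present in Ctrl as well as in cKO. Ctrl gave 4 libraries per hemisphere and cKO gave 3, and the labels carry 8 mouse numbers, of which 6 are on both hemispheres. The cKO numbers 788 (CL) and 784 (IL) are on 1 hemisphere each, and whether they are different animals or a slip in the labels cannot be told, since the study counts its cKO mice as fewer than these numbers would give. Each library is named here by its group and mouse number.

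Depth, read from the smallest step between values, ranged from 12.2 to 41.6 in units of 1000000 reads, with a median of 34.2. Ctrl IL of mouse 3546 was the shallowest library and stood apart for several mitochondrial genes, so some results that rest on it are given with and without it. The 10 microglia and macrophage markers summed to between 37562 and 41584 CPM (counts per 1000000 counts assigned to genes) in the CL libraries and between 24145 and 27101 CPM in the IL libraries. The 6 infiltrating monocyte markers summed to between 62.4 and 212 CPM in CL and between 382 and 795 CPM in IL, and none of the markers of either list was at 0 throughout a group.

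Complex I, NADH:ubiquinone oxidoreductase, is the entry point of electrons from NADH into the respiratory chain, and it pumps protons across the inner mitochondrial membrane. The subunits made from mitochondrial DNA form the core of its membrane arm, and those made from nuclear DNA form the rest of the complex. *mt-Nd2*, *mt-Nd4* and *mt-Nd5* encode the antiporter-like proton-pumping subunits, *mt-Nd1* the subunit next to the quinone pocket, and *mt-Nd3*, *mt-Nd4l* and *mt-Nd6* smaller subunits that lie between them. Mitochondrial genes are transcribed as long precursors from both strands, which are then cut at the tRNAs between the genes. Stretches of mitochondrial DNA that have been inserted into chromosomes are known as nuclear copies, and a read from one can be hard to tell from a read of the mitochondrial gene.

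*mt-Nd3* (ENSMUSG00000064360) spans chrM:9459-9806 on the plus strand of GRCm38 (mm10). *Gm28438* (ENSMUSG00000101939) spans chr1:24612775-24613119 on the minus strand and is annotated by GENCODE as an unprocessed pseudogene. Over the 345 bases of *Gm28438* the annotated sequences differ at 1 base, T3C, counted from 1 at the 5′ end of *mt-Nd3*, which is position 9461 of the mitochondrial genome and position 24613117 of chromosome 1. The first 150 bases of both are shown because the split of values between them is where the members differed most by genotype, with the differing base in capitals, and all later bases of the copy are the same in *mt-Nd3*.

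mt-Nd3: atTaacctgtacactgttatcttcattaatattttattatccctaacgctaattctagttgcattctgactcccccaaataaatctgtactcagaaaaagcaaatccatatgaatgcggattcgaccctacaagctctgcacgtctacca

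Gm28438: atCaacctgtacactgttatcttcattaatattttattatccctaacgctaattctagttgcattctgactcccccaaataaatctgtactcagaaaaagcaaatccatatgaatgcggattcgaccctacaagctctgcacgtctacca

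*mt-Nd4l* (ENSMUSG00000065947, chrM:9877-10173, plus strand) has an even closer copy beside *Gm28438*. *Gm10222* (chr1:24612407-24612700, minus strand) matches it over 294 bases with 0 mismatches, and the capitals mark the last bases of *mt-Nd4l*, which lie beyond the annotated end of the copy. This pair is shown because most of its summed value was assigned to the copy in every library.

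mt-Nd4l: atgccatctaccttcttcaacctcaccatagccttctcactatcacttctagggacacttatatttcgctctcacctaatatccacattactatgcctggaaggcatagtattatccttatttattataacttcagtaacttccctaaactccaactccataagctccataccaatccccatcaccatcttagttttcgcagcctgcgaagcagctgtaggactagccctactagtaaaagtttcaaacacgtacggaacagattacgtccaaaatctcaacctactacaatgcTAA

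Gm10222: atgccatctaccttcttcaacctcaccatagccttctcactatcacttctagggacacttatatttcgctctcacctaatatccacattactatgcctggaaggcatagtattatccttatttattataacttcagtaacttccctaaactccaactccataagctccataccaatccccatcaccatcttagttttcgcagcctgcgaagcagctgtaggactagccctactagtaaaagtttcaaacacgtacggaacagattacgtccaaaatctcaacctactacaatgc

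These copies belong to a block of 7 unprocessed pseudogenes between positions 24611535 and 24616197 of chromosome 1, all on the minus strand and each matching a mitochondrial gene. *Gm28439* matches 876 bases of *mt-Nd4*, *Gm28437* 783 bases of *mt-Co3*, *Gm10925* 678 bases of *mt-Atp6* and *Gm28661* 681 bases of *mt-Co2*, each with 0 mismatches, and *Gm29216* matches 483 bases of *mt-Co1* with 1 mismatch. Every other annotated transcript that matched a member was less similar and low. *Gm13339* matched *mt-Nd2* at 96.7% identity, *Gm4076* and *Gm11407* matched *mt-Nd5* at 95.2% and 92.3%, and *Gm11408* matched *mt-Nd6* at 93.6%, and none of these copies exceeded 0.586 CPM in any library. Members also overlap each other on the mitochondrial genome, *mt-Nd4l* and *mt-Nd4* by 7 bases and *mt-Nd5* and *mt-Nd6* by 14 bases. *mt-Nd6* (chrM:13552-14070) is the only member on the minus strand of the mitochondrial genome, and the library kit does not keep the strand, so reads of *mt-Nd6* cannot be told apart from antisense reads of the opposite strand there.

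The members differed widely in level. On the scale of CPM per kb of annotated length, *mt-Nd1* (chrM:2751-3707) was highest at 303 ± 49.1 (SD over the 14 libraries), and was 1.85 to 3.94 times the level of *mt-Nd5* (chrM:11742-13565) within each library. *mt-Nd5* at 113 ± 26.4 and *mt-Nd4* (chrM:10167-11544) at 111 ± 10.7 CPM per kb were close over all libraries, but their order went with the genotype. *mt-Nd5* was the higher in 6 of 6 cKO libraries and in 1 of 8 Ctrl libraries, IL of mouse 3546. The means of *mt-Nd5* and *mt-Nd4* were 84.1 against 103 CPM per kb in Ctrl CL and 108 against 111 CPM per kb in Ctrl IL. In cKO they were 122 against 111 CPM per kb in CL and 148 against 123 CPM per kb in IL, so the means were closer in Ctrl IL and cKO CL. *mt-Nd4* exceeded *mt-Nd6* in 14 of 14 libraries, whereas *mt-Nd6* at 60.2 ± 15.3 CPM per kb exceeded *mt-Nd2* (chrM:3914-4951) at 55.2 ± 11.6 CPM per kb in 10 of 14. *mt-Nd3* at 25.0 ± 15.3 and *mt-Nd4l* at 4.07 ± 2.32 CPM per kb were the lowest mitochondrial members, with *mt-Nd3* above *mt-Nd4l* in all 14 libraries. Both levels leave out the values assigned to their copies. Summed with the copy, *mt-Nd3* averaged 17.8 CPM and *mt-Nd4l* 7.33 CPM over the 14 libraries. In Ctrl IL of mouse 3546 these sums had the opposite order, at 2.29 and 4.17 CPM. *Gm28438* averaged 26.3 ± 29.5 CPM per kb, and its SD exceeded its mean.

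**Figure D1:**
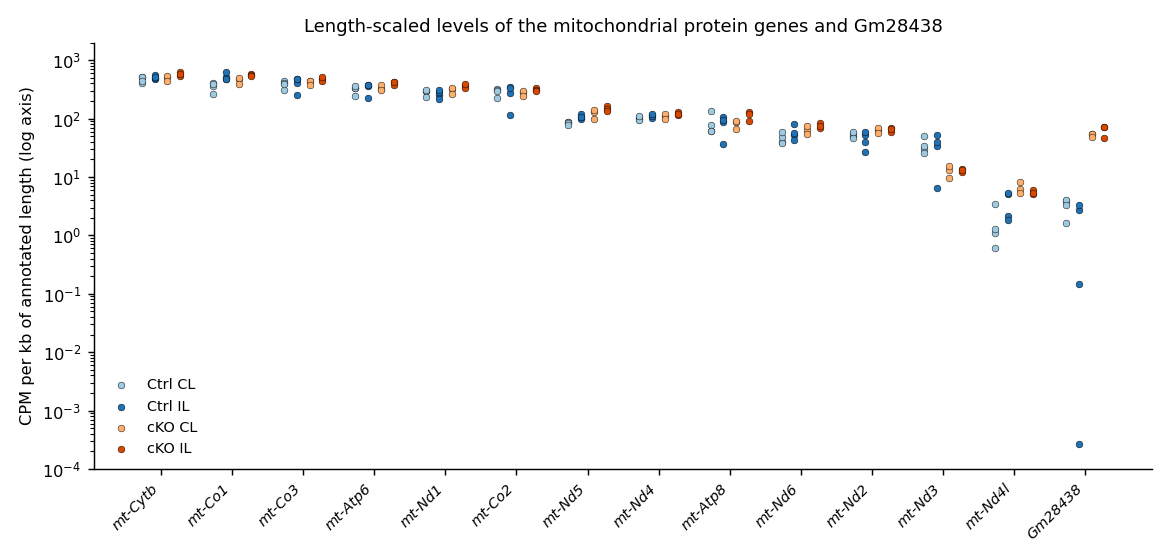
Level of each mitochondrially encoded protein gene and of *Gm28438* in CPM per kb of annotated length, on a log axis. Each point is a library coloured by group, and genes are ordered by their mean with *Gm28438* last. *mt-Nd1* is the highest complex I gene at a mean of 303, *mt-Nd3* and *mt-Nd4l* are the lowest at 25.0 and 4.07, and the cKO points of *Gm28438* lie above its Ctrl points. The mitochondrial genes are shown without the values assigned to their copies.

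In CPM, the 7 *mt-Nd* genes together took 659 ± 51.7 in Ctrl CL (SD, n = 4), 695 ± 69.2 in Ctrl IL (SD, n = 4), 779 ± 108 in CL of cKO (SD, n = 3) and 901 ± 51.2 in IL of cKO (SD, n = 3). This was between 0.0585% and 0.0953% of all counts assigned to genes in a library. The 13 protein genes of mitochondrial DNA together took 2479 ± 216, 2843 ± 218, 2822 ± 329 and 3313 ± 158 CPM in the same order of groups. In terms of reads, *mt-Nd1* rested on 2575 to 12110 reads per library, *mt-Nd3* on 28.0 to 623 and *mt-Nd4l* on 6.03 to 66.9, so the last 2 are the least precise of the 7.

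*Gm28438* was the member with the widest difference between genotypes. It stood at 0.562, 1.34, 1.40 and 1.16 CPM in Ctrl CL of mice 3541, 3545, 3546 and 3551, and at 0.951, 1.15, 9.18e-05 and 0.0507 CPM in Ctrl IL of the same mice. In cKO CL it stood at 19.2, 18.8 and 16.6 CPM in mice 788, 791 and 3592, and in cKO IL at 24.6, 16.0 and 25.2 CPM in mice 784, 791 and 3592. All 8 Ctrl libraries were therefore below all 6 cKO libraries. The value in Ctrl IL of mouse 3546 was less than the 0.0818 CPM that 1 read is worth in that library. The log2 change of cKO against Ctrl was 3.93 (SE 0.34), or 15.2-fold, in IL and 3.20 (SE 0.23), or 9.18-fold, in CL, on the scale of log2(CPM + 1), which understates the change of a gene so low in Ctrl. With a pseudocount of 0.1 in place of 1 the log2 changes were 5.80 and 3.97.

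*mt-Nd3* went the other way. It was at 10.4, 11.8, 9.05 and 17.4 CPM in Ctrl CL of mice 3541, 3545, 3546 and 3551, and at 12.0, 14.1, 2.29 and 18.2 CPM in Ctrl IL. In cKO it was at 4.52, 5.42 and 3.31 CPM in CL of mice 788, 791 and 3592 and at 4.27, 4.72 and 4.59 CPM in IL of mice 784, 791 and 3592. In 7 of the 8 Ctrl libraries *mt-Nd3* was above every cKO library, and the exception was Ctrl IL of mouse 3546, which lay below all of them. The log2 change of cKO against Ctrl was -1.27 (SE 0.26) in CL and -0.93 (SE 0.58) in IL, and in IL it was -1.54 without Ctrl IL of mouse 3546.

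The sum of *mt-Nd3* and *Gm28438* did not follow *mt-Nd3*. The sum was 13.3 ± 3.74 CPM in Ctrl CL and 12.2 ± 6.95 CPM in Ctrl IL (SD, n = 4), or 15.5 ± 2.69 CPM there without mouse 3546 (SD, n = 3), against 22.6 ± 2.37 CPM in cKO CL and 26.5 ± 5.02 CPM in cKO IL (SD, n = 3). The lowest sum in cKO, 19.9 CPM in CL of mouse 3592, exceeded the highest in Ctrl, 18.6 CPM in CL of mouse 3551. Taken as a single gene, the pair had a log2 change of 0.75 in CL and 1.31 in IL, or 0.68 in IL without Ctrl IL of mouse 3546, so the direction was opposite to that of *mt-Nd3* alone.

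The share of the pair's sum that was assigned to *Gm28438* separated the genotypes without overlap. It was 5.15% to 13.4% in Ctrl CL and 0.00401% to 7.57% in Ctrl IL, and 77.6% to 83.3% in cKO CL and 77.2% to 85.2% in cKO IL. In no other pair of the block did the genotypes separate over both hemispheres. For *Gm10222* and *mt-Nd4l* the share of the copy ran from 79.1% to 96.7% over the Ctrl libraries and from 72.2% to 85.8% over the cKO libraries, and in CL alone it was 81.6% to 96.7% in Ctrl and 72.2% to 79.2% in cKO. For *Gm28439* and *mt-Nd4* it ran from 0.775% to 1.93% in Ctrl and from 1.07% to 1.88% in cKO. The share of *Gm28437* was between 50.0% and 56.5%, that of *Gm10925* between 36.2% and 47.2%, and that of *Gm29216* between 0.273% and 7.55% over all 14 libraries, and for each of them the ranges of the genotypes overlapped. *Gm28661* took 25.2% to 35.8% of its sum with *mt-Co2* in Ctrl and 34.2% to 46.4% in cKO, which overlap at their edges. Whether the reads themselves carry the base of *Gm28438* or that of *mt-Nd3* was not tested, since only counts per gene entered.

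**Figure D2:**
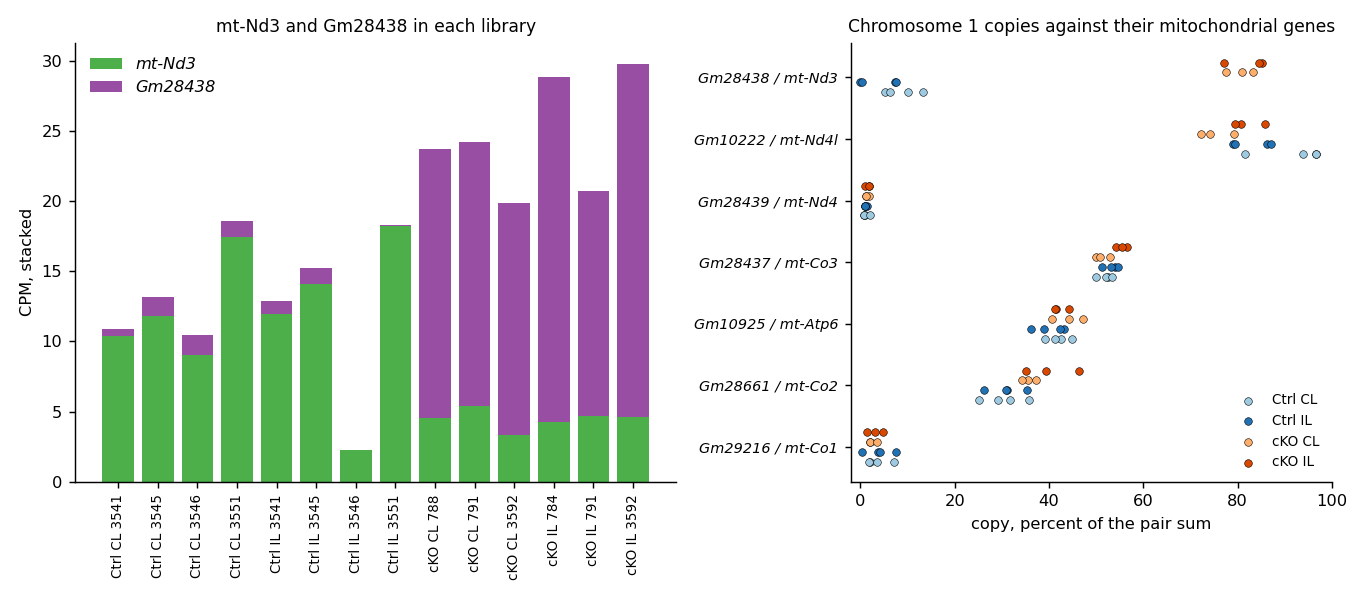
Left, stacked CPM of *mt-Nd3* and *Gm28438* in each library, named by group and mouse. Right, CPM of each chromosome 1 copy as a percent of its sum with the matching mitochondrial gene, 1 point per library. *Gm28438* makes up 77.2% to 85.2% of its pair in cKO and at most 13.4% in Ctrl, and the ranges of the genotypes overlap in each of the other 6 pairs.

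Among the other *mt-Nd* genes, in IL, *mt-Nd1* was at 349 ± 30.2 CPM in cKO (SD, n = 3) and 257 ± 38.7 CPM in Ctrl (SD, n = 4), *mt-Nd2* at 67.4 ± 4.65 against 46.0 ± 14.4 CPM, and *mt-Nd5* at 270 ± 26.8 against 196 ± 15.4 CPM, and in these 3 genes no cKO library overlapped a Ctrl library. The log2 changes were 0.46 (SE 0.17), 0.61 (SE 0.28) and 0.47 (SE 0.13). Without Ctrl IL of mouse 3546 the values of *mt-Nd1* and *mt-Nd2* were 0.30 and 0.32. *mt-Nd6* at 39.7 ± 3.94 against 30.1 ± 8.70 CPM and *mt-Nd4* at 169 ± 12.3 against 153 ± 10.1 CPM overlapped between the genotypes in IL, with log2 changes of 0.44 and 0.15, or 0.24 and 0.084 without Ctrl IL of mouse 3546. *mt-Nd4l* overlapped as well, at 1.62 ± 0.15 against 1.07 ± 0.56 CPM, with a log2 change of 0.38 (SE 0.23), which was 0.22 without Ctrl IL of mouse 3546, 0.69 with a pseudocount of 0.1 and 0.58 for its sum with *Gm10222*. Together with *Gm28438*, 4 of the 8 members lay wholly above Ctrl in IL, where 4.84% of the 16919 genes tested lay wholly above and 5.47% wholly below.

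In CL, *mt-Nd5* was at 223 ± 40.3 CPM in cKO (SD, n = 3) and 153 ± 8.32 CPM in Ctrl (SD, n = 4), with a log2 change of 0.51 (SE 0.19), and the genotypes did not overlap. *mt-Nd4l* was at 1.83, 2.44 and 1.60 CPM in cKO CL of mice 788, 791 and 3592 and at 1.01, 0.184, 0.322 and 0.375 CPM in Ctrl CL of mice 3541, 3545, 3546 and 3551. Its log2 change was 1.01 (SE 0.23), or 2.02-fold, on the scale of log2(CPM + 1), which understates the change of so low a gene, and was 1.38 and 2.01 with pseudocounts of 0.5 and 0.1. For the sum with the identical copy *Gm10222* it was 0.22. *mt-Nd1* at 298 ± 37.0 against 272 ± 33.9 CPM, *mt-Nd2* at 65.7 ± 6.91 against 54.7 ± 4.96 CPM, *mt-Nd4* at 153 ± 17.6 against 142 ± 11.2 CPM and *mt-Nd6* at 33.8 ± 5.03 against 24.1 ± 4.97 CPM overlapped between the genotypes. With *Gm28438* higher and *mt-Nd3* lower, 3 of the 8 members lay wholly above Ctrl in CL and 1 wholly below, where 3.98% and 6.04% of the 16570 genes tested did. The summed oligodendrocyte markers also separated the genotypes in CL, at 176 to 215 CPM in cKO and 220 to 310 CPM in Ctrl. The neutrophil markers had a median log2 change of -1.53 in CL, and their sums overlapped, at 203 to 664 CPM in cKO and 305 to 3058 CPM in Ctrl. The part of either list in these values was not tested.

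**Figure D3:**
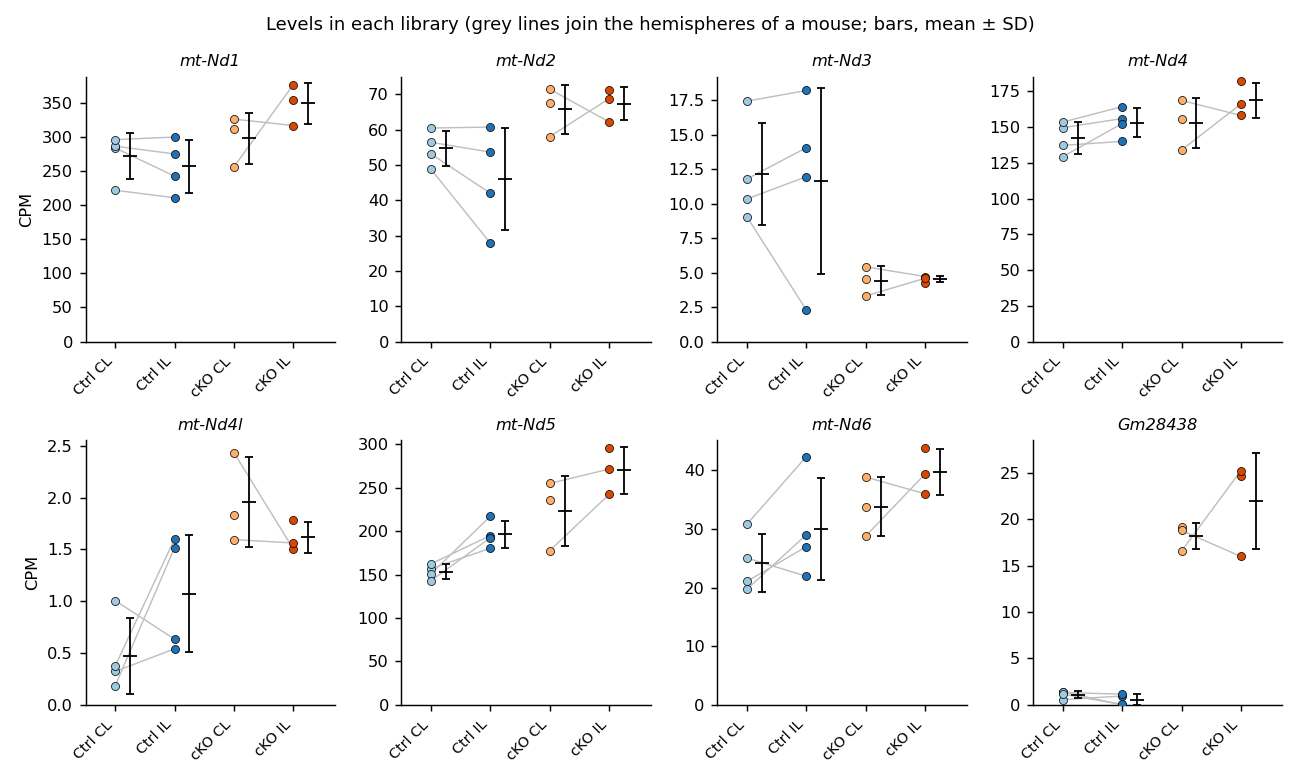
CPM of the 8 members in each library by group. Points are libraries, grey lines join both hemispheres of a mouse, and bars give the mean ± SD of the group (4 Ctrl and 3 cKO libraries per hemisphere). *Gm28438* is at most 1.40 CPM in Ctrl and at least 16.0 CPM in cKO, and *mt-Nd3* is 3.31 to 5.42 CPM in cKO.

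Injury was addressed by the comparison of IL with CL within a genotype. In Ctrl, 0 of the 8 members passed the threshold of limma (adjusted p of at most 0.05 and a fold change of at least 1.2), where 6.58% of the 16376 genes tested were called. *mt-Nd5* came closest. It was at 157, 162, 151 and 143 CPM in CL of mice 3541, 3545, 3546 and 3551 and at 180, 195, 217 and 192 CPM in IL, so that each IL library lay above each CL library and 4 of 4 mice were higher in IL. It was the only member without overlap, as 17.7% of all genes tested were. Its log2 change was 0.43 (SE 0.15, 95% interval 0.09 to 0.76), with an adjusted p of 0.134 in limma. With the mouse as a fixed block, which the design allows because both hemispheres came from the same animal, *mt-Nd5* was called with an adjusted p of 0.0106, and with the mouse as a random effect with an adjusted p of 0.00436, within a range of 0.00436 to 0.357 over all alternatives. The fixed block called 3358 and the random effect 4479 of all 16376 genes, and each called 1 of the 8 members.

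None of the remaining members was called in Ctrl. *mt-Nd4l* had a log2 change of 0.51 (SE 0.24), *mt-Nd6* of 0.36 (SE 0.21), *mt-Nd4* of 0.18 (SE 0.15), *mt-Nd1* of -0.01 (SE 0.20), *mt-Nd2* of -0.22 (SE 0.26), *mt-Nd3* of -0.20 (SE 0.51) and *Gm28438* of -0.45 (SE 0.29), with adjusted p values from 0.269 to 0.988. The size of the change depended on the pseudocount for the lowest of them, and with 0.1 in place of 1 it was 1.15 for *mt-Nd4l* and -1.50 for *Gm28438*, neither of them called. At an unadjusted p under 0.05 there was 1 member, *mt-Nd5*, against 21.1% of all genes. *mt-Nd4* was higher in IL in 4 of 4 mice, by 0.11 to 0.28 on the log2 scale, and its log2 change ran from 0.095 without Ctrl CL of mouse 3546 and 0.096 without Ctrl IL of mouse 3545 to 0.27 without Ctrl CL of mouse 3545. *mt-Nd3* was higher in IL in 3 of 4 mice and was 1.55 lower in mouse 3546, and without Ctrl IL of mouse 3546 its log2 change was 0.40 in place of -0.20. Without the same library those of *mt-Nd2* and *mt-Nd1* were 0.05 and 0.14 in place of -0.22 and -0.01, and those of *mt-Nd6* and *Gm28438* were 0.55 and -0.25. Other libraries moved the last 2 the other way. *mt-Nd6* was at 0.23 without Ctrl IL of mouse 3551, and *Gm28438* at -0.68 without Ctrl IL of mouse 3545. For the sum of *mt-Nd4l* and *Gm10222* the log2 change was -0.09, of opposite sign to that of *mt-Nd4l* alone.

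In cKO, 0 of the 8 members passed the same threshold, where 22.4% of the 16758 genes tested were called. *mt-Nd1* was at 311, 326 and 256 CPM in CL of mice 788, 791 and 3592 and at 354, 316 and 376 CPM in IL of mice 784, 791 and 3592, and the hemispheres overlapped. Its log2 change was 0.32 (SE 0.12, 95% interval 0.04 to 0.59), with an adjusted p of 0.0964 in limma. *mt-Nd5* was at 236, 255 and 178 CPM in CL and 296, 271 and 242 CPM in IL of these mice, with a log2 change of 0.37 (SE 0.17) and an adjusted p of 0.1503. With the mouse as a random effect over all 14 libraries *mt-Nd5* was called at a log2 change of 0.39 and an adjusted p of 0.0420, but not with the mouse as a fixed block, and its adjusted p ranged from 0.0420 to 0.359 over the alternatives. The random effect called 3284 of all 16758 genes here.

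Of the other members in cKO, *mt-Nd6* had a log2 change of 0.32 (SE 0.14), *Gm28438* of 0.31 (SE 0.16), *mt-Nd4* of 0.23 (SE 0.12), *mt-Nd2* of 0.12 (SE 0.11), *mt-Nd3* of 0.12 (SE 0.20) and *mt-Nd4l* of -0.11 (SE 0.17), with adjusted p values from 0.132 to 0.708. An unadjusted p under 0.05 was reached by 2 members, *mt-Nd1* and *mt-Nd6*, against 36.6% of all genes. No member was free of overlap between the hemispheres, against 42.4% of all genes tested. In mouse 3592 *mt-Nd1* was 0.59 higher in IL on the log2 scale after scaling of the libraries and in mouse 791 it was 0.16 higher, and for *Gm28438* these differences were 0.61 and -0.03. The direction of *mt-Nd1* in mouse 791 depended on the scaling, since its CPM before scaling was 326 in CL and 316 in IL. CL of mouse 3592 held the lowest value of each *mt-Nd* gene among the cKO CL libraries, and without it the log2 changes of *mt-Nd1* and *mt-Nd5* were 0.20 and 0.21. Those of *mt-Nd2*, *mt-Nd3*, *mt-Nd4* and *mt-Nd6* were then 0.03, -0.04, 0.13 and 0.20. That of *Gm28438* ran from 0.21 without cKO IL of mouse 784 to 0.48 without cKO IL of mouse 791.

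The difference between the responses of the genotypes was tested as an interaction over all 14 libraries. It was past the threshold for 0 of the 8 members and for 0.00% of the 18476 genes tested by limma, and at an unadjusted p under 0.05 for 0 members, against 2.60% of all genes. The interaction of *Gm28438* was 0.79 on the log2 scale (95% interval -0.10 to 1.68) and that of *mt-Nd4l* was -0.61 (95% interval -1.32 to 0.10), where a positive value means a higher IL against CL change in cKO. For *mt-Nd5* it was -0.05 (95% interval -0.53 to 0.44), so that differences of that size between the genotypes could not be resolved. The IL libraries held fewer counts of microglial and more of monocyte markers than the CL libraries. In Ctrl they also held lower sums of the dissociation response genes (24243 to 27268 against 32213 to 41330 CPM) and of astrocyte markers (122 to 171 against 208 to 225 CPM), and the neutrophil markers had a median log2 change of -2.37. The part of cell composition and of dissociation in any hemisphere difference was not tested, and in such bulk samples fewer cells of a type cannot be told apart from less RNA per cell.

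**Figure D4:**
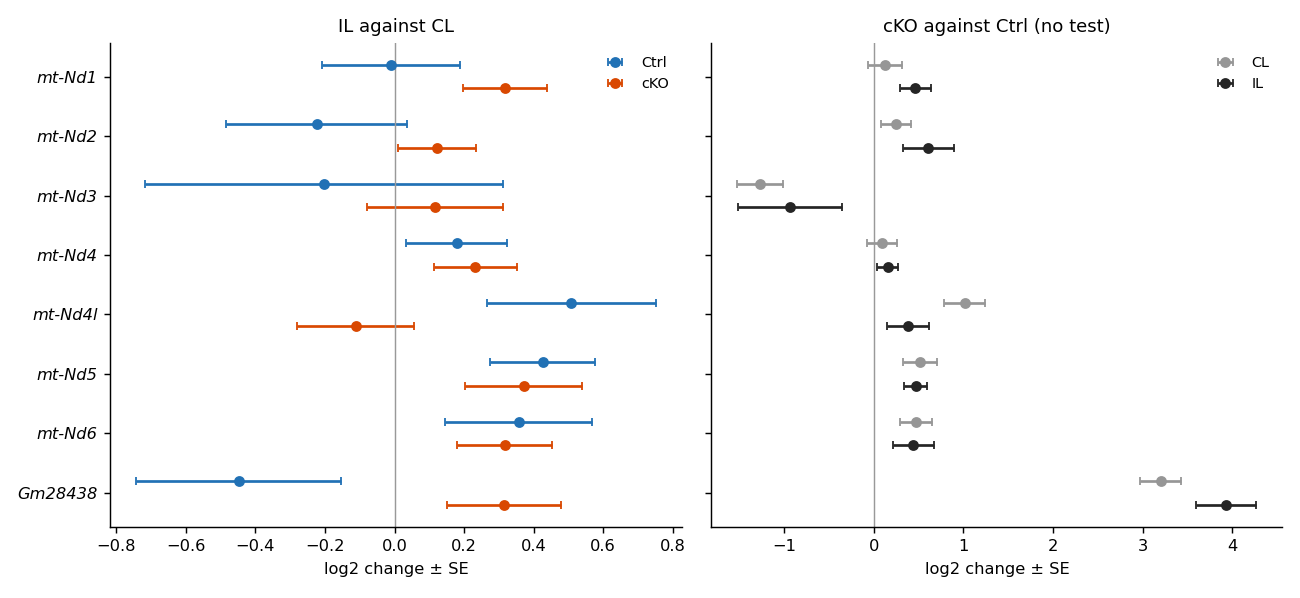
Log2 change ± SE of the 8 members between the hemispheres in each genotype (left) and between the genotypes in each hemisphere (right, without a test because the members were chosen with these values known). In Ctrl *mt-Nd5* is at 0.43 and *mt-Nd1* at -0.01, and on the right *Gm28438* is at 3.93 in IL and 3.20 in CL while *mt-Nd3* is at -0.93 and -1.27. The horizontal scales of the panels differ.

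The other protein genes of mitochondrial DNA were compared in the same fits. They encode subunits of cytochrome c oxidase (*mt-Co1*, *mt-Co2*, *mt-Co3*), of ATP synthase (*mt-Atp6*, *mt-Atp8*) and of complex III (*mt-Cytb*). In Ctrl, 0 of the 6 were called between the hemispheres, and 1, *mt-Co1*, had an unadjusted p under 0.05 and no overlap, where 6.58%, 21.1% and 17.7% of all genes did. *mt-Co1* was at 811 ± 102 CPM in IL against 549 ± 100 CPM in CL (SD, n = 4), with a log2 change of 0.65 (SE 0.17) and a limma adjusted p of 0.0535. It was called with the mouse as a fixed block at an adjusted p of 0.0157, and over the alternatives the adjusted p ran from 0.000628 to 0.155. That block called 3358 of all 16376 genes. In cKO, *mt-Atp6* rose from 225.5 ± 23.0 CPM in CL to 276 ± 21.2 CPM in IL (SD, n = 3), with a log2 change of 0.38 (SE 0.10) and an adjusted p of 0.0348, within a range of 0.0306 to 0.365 over the alternatives. This call was lost with the mouse as a fixed block (adjusted p of 0.153) and without any of 5 of the 6 libraries, at adjusted p values up to 0.137. The other 5 genes had log2 changes in cKO from 0.24 to 0.52 and were not called. Thus 1 of the 6 was called, 5 had an unadjusted p under 0.05 and 3 did not overlap between the hemispheres, where 22.4%, 36.6% and 42.4% of all genes did. Between the genotypes 0 of these 6 genes were called in IL, with adjusted p values from 0.798 to 0.939, and 0 in CL, with adjusted p values from 0.590 to 0.984, where limma called 0.662% and 0.875% of all genes and none of the 6 reached an unadjusted p under 0.05, as 8.91% and 9.81% of all genes did. The rRNA genes *mt-Rnr1* and *mt-Rnr2* were called in no comparison, and of the 22 mitochondrial tRNA genes 1, *mt-Tq*, had values and it did not pass the filter. Both rRNA genes lay wholly above Ctrl in cKO CL, where 3.98% of all genes did, and overlapped between the genotypes in IL. Of the copies beside *Gm28438*, only *Gm28661* lay wholly above Ctrl, in cKO IL, where 4.84% of all genes did.

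The nuclear partners of the members were read from 37 genes of complex I subunits. In cKO, 27 of the 37 were called higher in IL than in CL and 0 lower, where 12.8% of all genes were called higher and 9.52% lower. Their median log2 change was 0.41 against 0.02 for all genes. *Ndufc1*, an accessory subunit, rose from 17.1 ± 2.08 to 29.5 ± 6.34 CPM (SD, n = 3; log2 change of 0.82, limma adjusted p of 0.00630). *Ndufs6*, which carries a zinc-binding site, rose from 18.3 ± 0.62 to 29.3 ± 5.50 CPM (log2 change of 0.72, adjusted p of 0.00594), and *Ndufb1-ps* rose from 12.7 ± 0.51 to 20.2 ± 3.13 CPM (log2 change of 0.70, adjusted p of 0.00700). The count depended on the fit. It was 11 with the mouse as a fixed block over the 2 cKO mice with both hemispheres, 2 with the mouse as a random effect and 0 in a single fit of all 14 libraries, and 16 without cKO IL of mouse 784. Of all genes, these fits called 2261 of 16752, 3284 of 16758, 1488 of 16758 and 1881 of 17178, in this order. *Ndufc1*, *Ndufs6* and *Ndufb1-ps* were not called with the mouse as a random effect, at adjusted p values of 0.221, 0.254 and 0.1995, nor in the single fit, at 0.441, 0.464 and 0.408. With the fixed block *Ndufb1-ps* missed the threshold at an adjusted p of 0.0510. In the same comparison 4 of 6 monocyte, 2 of 6 oligodendrocyte and 1 of 6 endothelial markers were called higher, 3 of 6 neutrophil markers, 3 of 10 microglia and macrophage markers and 4 of 12 genes of the dissociation response were called lower, and 1 of 6 astrocyte markers was called in each direction, and their part in these values was not tested.

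In Ctrl 0 of the 37 nuclear genes were called between the hemispheres by limma, 0 reached an unadjusted p under 0.05, and their median log2 change was 0.04, where 6.58% of all genes were called and 21.1% had such a p. Without Ctrl IL of mouse 3546 the count was 6, with the mouse as a fixed block 1, and with the mouse as a random effect 2. Of all genes, these fits called 1413 of 16723, 3358 of 16376 and 4479 of 16376. Between the genotypes 0 were called in either hemisphere, where 0.662% and 0.875% of all genes were, with 0 in IL and 1 in CL at an unadjusted p under 0.05, where 8.91% and 9.81% of all genes were. Their median log2 change was 0.24 in IL, against 0.01 for all genes, and -0.21 in CL, against -0.06 for all genes, and in CL all 37 were below 0. The smallest p in CL was that of *Ndufs5*, at 9.30 ± 0.45 CPM in cKO (SD, n = 3) and 21.3 ± 4.49 CPM in Ctrl (SD, n = 4), with a log2 change of -1.10 and a limma adjusted p of 0.0810. The interaction was past the threshold for 0 of the 37, so a different response of these genes in cKO and in Ctrl was not shown, although their interaction values were positive in 37 of 37 (median 0.47, against 0.04 for all genes). These interaction values, the median change between the hemispheres in Ctrl and that between the genotypes in IL include Ctrl IL of mouse 3546. They are given with it only, so how far they rest on that library is not shown.

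**Figure D5:**
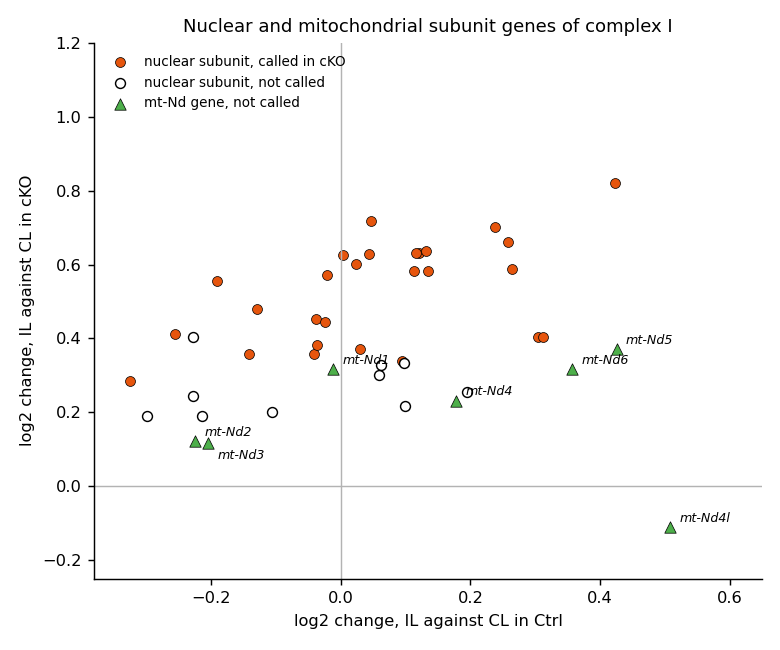
Log2 change of IL against CL in Ctrl (horizontal) and in cKO (vertical) for the 37 nuclear complex I subunit genes and the 7 *mt-Nd* genes. Filled circles are the 27 nuclear genes called in cKO, open circles those not called, and triangles the *mt-Nd* genes, none of which was called in either genotype. All 37 nuclear genes lie above 0 in cKO, at a median of 0.41.

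Genes that help to build complex I or to make its mitochondrial transcripts were read from further lists. Of 18 assembly factors, 1 was called between the hemispheres in cKO, where 22.4% of all genes were. *Tmem126a* rose from 15.6 ± 0.36 CPM in CL to 21.2 ± 1.33 CPM in IL (SD, n = 3; log2 change of 0.50, adjusted p of 0.0145), and the call was lost with the mouse as a fixed block (adjusted p of 0.0916) and without cKO IL of mouse 784 or 791 (0.0628 and 0.0533). Of 30 genes of mitochondrial transcription, replication and RNA processing, 4 were called higher and 1 lower in cKO IL, where 12.8% and 9.52% of all genes were. *Slirp*, a partner of *Lrpprc* in mitochondrial mRNA stability, rose from 14.2 ± 0.55 to 21.97 ± 2.60 CPM (log2 change of 0.67, adjusted p of 0.00618), and *Pnpt1*, a mitochondrial RNA-degrading enzyme, from 27.6 ± 4.86 to 38.3 ± 2.63 CPM (log2 change of 0.55, adjusted p of 0.0334). *Twnk*, the helicase of mitochondrial DNA replication, fell from 17.7 ± 0.20 to 11.2 ± 0.89 CPM (log2 change of -0.53, adjusted p of 0.0162). *Slirp* was not called with the mouse as a random effect (adjusted p of 0.2405), *Pnpt1* was not called without any of 5 of the 6 libraries (0.0507 to 0.118), and *Twnk* was not called with the mouse as a fixed block (0.1301) or without cKO CL of mouse 788 or cKO IL of mouse 784 (0.0506 and 0.0697). In Ctrl 0 genes of both lists were called between the hemispheres, where 6.58% of all genes were, with 0 assembly factors and 8 of the 30 in the second list at an unadjusted p under 0.05, as 21.1% of all genes were, and *Twnk* there had a log2 change of -0.51 and an adjusted p of 0.0893. Between the genotypes 0 genes of both lists were called in either hemisphere, where 0.662% and 0.875% of all genes were called in IL and CL. At an unadjusted p under 0.05 there were 5 genes in IL and 2 in CL, where 8.91% and 9.81% of all genes were. The smallest p among them was that of *Elac2*, which cuts the 3′ ends of tRNAs, at 38.1 ± 2.50 CPM in IL of cKO (SD, n = 3) and 27.7 ± 2.46 CPM in IL of Ctrl (SD, n = 4), and limma gave it an adjusted p of 0.167.

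Over the 14 libraries, log2 values of the *mt-Nd* genes went together for most pairs and not for *mt-Nd3*. Pearson's r was 0.88 for *mt-Nd1* and *mt-Nd2*, 0.85 for *mt-Nd1* and *mt-Nd4* and 0.83 for *mt-Nd4* and *mt-Nd5*, whereas r of *mt-Nd3* with the other *mt-Nd* genes lay between -0.39 and 0.20. These values describe libraries that share depth, hemisphere and genotype. Among the 8935 genes of at least 10 CPM that are on none of the lists, those most like the mean of the 7 *mt-Nd* genes were the copies *Gm10925* (r = 0.95) and *Gm28437* (r = 0.94), followed by *Commd4*, *Mif* and *Bcl2a1b* (r = 0.92 each). Among 13510 genes of at least 1 CPM, those most like *Gm28438* were *Bckdhb* (r = 0.97), *Wdfy1* (r = 0.97), *Gm13841* (r = 0.96), *Cap1* (r = 0.96) and *Gm42743* (r = 0.96). Of these *Wdfy1* is on chromosome 1, and the others are on chromosomes 9, 5, 4 and 3, in the order named. *Gm28438* was chosen for its difference between genotypes, so this ranking favours any gene that differs by genotype.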

How the data were processed

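RNA-seq was analysed for 14 libraries of CD11b+ cells. Reads had been aligned by the authors to mm10 with STAR and quantified in Partek Flow (version 8.0 per the labels). The values they deposited as raw counts sum to 1000000 in each library and were therefore treated as CPM. Of the values under 100 reads, 78.9% to 83.5% were whole multiples of 1 step per library (tolerance 0.03), so whole reads could not be recovered and no test on counts was run. The authors' own tables of p-values and fold changes between genotypes were not used. The targeted gene of the cKO is not reported here. Gene names and positions came from GENCODE M21, which named 33802 of the 33939 genes.

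The libraries of each comparison were scaled by an unweighted trimmed mean of M-values (30% of M and 5% of A values trimmed), and log2(CPM + 1), which understates changes of low genes, was fitted with limma 3.58.1 (trend) in R 4.3.3. A gene was kept if at least the smaller group's number of libraries had the CPM equal to 10 reads at median depth (0.288 for Ctrl, 0.312 for cKO, 0.292 for IL and 0.353 for CL) and 15 reads were present in total. Benjamini-Hochberg adjustment ran over all genes tested, and calls needed an adjusted p of at most 0.05 with a 1.2-fold change. Annotated transcripts were compared by alignment. The fits were tested on simulated data.

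The labels number the mice, and both hemispheres of a mouse come from the same animal. After subtraction of group means, same-mouse libraries correlated at 0.210 to 0.637 in 6 of 6 pairs, against -0.555 to 0.536 (median -0.239) for 19 other pairs, so the ranges overlap, and the pairing rests on the labels. The numbers 784 and 788 were treated as different mice, as the labels give them. Alternatives were other scalings, pseudocounts, filters and thresholds, all 14 libraries in a single fit, the mouse as a block, and leaving out each library. The counts of nuclear subunits under these alternatives, the sums of *mt-Nd4l* and *mt-Nd4* with their copies, and the sum of *mt-Nd3* and *Gm28438* without mouse 3546 in IL, were chosen after seeing the data.

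The members and lists were chosen with earlier results of these data known. Named were the members, the other mitochondrial protein genes, up to 3 called genes of largest change in each other list and comparison (without a call, at most the gene of smallest p), genes within 10 kb of *Gm28438* or with a transcript of at least 90% identity over 100 bases, and the 5 genes most correlated with each pattern.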

Additional observations from a re-analysis of the deposited data

Results flagged for a closer look

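A pair of values stood apart from the other 3 libraries of their group, both in mouse 3546. *mt-Nd1* was at 221.6 CPM in Ctrl CL of that mouse, where the others lay between 283.6 and 295.8 CPM. *mt-Atp6* was at 153 CPM in Ctrl IL of that mouse, where the others lay between 247.5 and 261 CPM. Over the 32 groups of 4 libraries looked at, chance alone gives such a gap in about 1 of 20 groups.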

How the results depend on the processing

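The members called between the hemispheres numbered 0 in each genotype under every other alternative run, and 1 (*mt-Nd5*) in Ctrl with the mouse as a fixed replicate block or as a random effect and 1 (*mt-Nd5*) in cKO under the random effect of the mouse. Of all genes, the fixed block called 3358 of 16376 in Ctrl and 2261 of 16752 in cKO. The random effect called 4479 of 16376 in Ctrl and 3284 of 16758 in cKO. The other mitochondrial protein genes called in Ctrl went from 0 to 1 with upper-quartile or median-ratio scaling, 10 reads in every library, a single fit of all 14 libraries, and either form of the block, and ran from 0 to 1 when a library was left out. In cKO they went from 1 to 0 with upper-quartile scaling, the deposited CPM without scaling, no filter beyond 1 read, the single fit, either block and a fold of at least 2, and ran from 0 to 1 when a library was left out. The nuclear complex I subunits called in Ctrl were 2 with the mouse as a random effect, 1 as a fixed block and 0 to 6 without a library, and those in cKO were 0 in the single fit, 2 and 11 with these blocks, 0 at a fold of at least 2 and 16 to 25 without a library. The block changed no other call of the members or of these counts.

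The sign of small log2 changes between the hemispheres also moved. In Ctrl *mt-Nd1* was at 0.041 with upper-quartile scaling, 0.029 with median-ratio scaling and 0.0098 in the single fit and with the mouse as a random effect, against -0.01, and ran from -0.145 to 0.142 without a library. Without a library *mt-Nd2* ran from -0.39 to 0.053 and *mt-Nd3* from -0.44 to 0.40 in Ctrl, and *mt-Nd3* from -0.044 to 0.25 and *mt-Nd4l* from -0.20 to 0.00035 in cKO. Summed with its copy, *mt-Nd4l* was at -0.087 in Ctrl and 0.27 in cKO, and *mt-Nd3*, between the genotypes, at 1.31 in IL (0.68 without Ctrl IL of mouse 3546) and 0.75 in CL, which follows from adding the values of *Gm28438*. The cause of the other changes was not tested. The 3 to 4 mice per group, and for *mt-Nd4l*, *mt-Nd3* and *Gm28438* in Ctrl the low number of reads, limit the precision.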
